A study of Mus musculus with 2 samples.

Results

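The fast glycolytic muscle spots were 160 of the 2263 spots over tissue in 2 skin sections, 80 in each section. They were chosen on measured values. In each section, spots with at least 500 UMIs (unique molecular identifiers, the tags of single captured molecules) were ranked by the share of their UMIs that came from *Acta1*, *Ckm*, *Tnnt3* and *Tnnc2*. The top 160 were kept as muscle spots. Among these, the 80 spots with the lower ratio of (*Myh2* + *Tnnt1* + 1) to (*Myh4* + *Pvalb* + 1) UMIs were taken as the fast spots. The other 80 are called the remaining muscle spots. The fast spots were set against the remaining muscle spots and against all spots outside the 160, which were 936 and 787 in the sections described next.

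The first section came from an S1pr2 fl/fl mouse, and the second from a mouse of genotype S1pr2 fl/fl K14-Cre. They are called the fl/fl and the K14-Cre section. Both carry the floxed *S1pr2* alleles. The K14 promoter drives the recombinase in keratinocytes and not in muscle. The mice were 8 weeks old, their backs were depilated 1 day before treatment, and each received 62.5 mg of 5% imiquimod (IMQ) cream on each of 7 days, so that neither section is untreated. Sections were 10 μm thick and fixed in formalin and embedded in paraffin, and RNA was read through probes on a Visium CytAssist array. With 1 section from 1 mouse per genotype there is no replicate, so no test was possible and genotype, mouse, section and library cannot be told apart. All intervals below are 95% intervals that cover counting error only. A spot is a small region that can hold fibres and other cells, and fewer fibres in a spot cannot be told apart from less RNA per fibre.

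As background, skeletal muscle fibres differ in the myosin heavy chain that they carry. Slow fibres use *Myh7* and live on oxidative metabolism, fast oxidative fibres use *Myh2*, and the fastest fibres use *Myh1* and *Myh4* and draw on glycogen and glycolysis. Mouse skin holds a thin sheet of striated muscle, the panniculus carnosus, beneath the dermis and fat.

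The fast spots held 326236 UMIs in the fl/fl section and 269943 in the K14-Cre section. A fast spot held 548 to 21770 UMIs in the fl/fl section (median, 4184) and 873 to 17138 in the K14-Cre section (median, 2837.5). The remaining muscle spots were shallower, with medians of 2037 and 2048.5 UMIs. Since 1 is added to both sides of the ratio, it depends on depth as well as on the fibres. The 4 muscle genes took a median of 6.84% of the UMIs of a fast spot in the fl/fl section and 10.9% in the K14-Cre section. At the lower limit of the 160 spots, this share was 4.85% for the last spot inside and 4.77% for the first outside in the fl/fl section, and 9.75% and 9.72% in the K14-Cre section. In the K14-Cre section, 164 spots outside the 160 still lay above the fl/fl limit, so the 4 genes took a larger share of the UMIs outside there. The 4 genes made up 0.541% of all UMIs outside in the fl/fl section and 2.48% in the K14-Cre section.

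The ratio that divided the 160 spots also fell on different scales. The last fast spot had a ratio of 0.1 in the fl/fl section, which 5 fast spots and 1 remaining muscle spot shared. In the K14-Cre section the limit lay between 0.0233 and 0.0236. Of the remaining muscle spots of the K14-Cre section, 65 of 80 had a ratio below 0.1 and would have counted as fast by the fl/fl limit. In contrast, 5 fast spots of the fl/fl section were within the K14-Cre limit. The fast spots were therefore the muscle spots with the lower ratio within each section, without a common limit. The name fast stands for this ratio only.

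In the tissue, most muscle spots lay in a thin band along the side of the section away from the keratin-rich edge. The map of both sections shows a band along most of the fl/fl section and, in the K14-Cre section, a band with a second strip beyond it. The median distance of a fast spot to the nearest of the 160 spots richest in *Krt5*, *Krt14*, *Krt1* and *Krt10* was 6.74 spot spacings in the fl/fl section (4.36 to 11.3) and 5.1 in the K14-Cre section (2.65 to 10.6). The remaining muscle spots lay at medians of 6.56 and 5 spacings, close to the fast spots, and the spots outside at 2.65 and 2. In the fl/fl section, 33.9% of the tissue spots adjacent to a fast spot were fast and 35.0% were remaining muscle spots, so the spots of both kinds were mixed along the band. In the K14-Cre section these shares were 33.5% and 21.8%. There, neighbours of the remaining muscle spots were of their own kind in 39.7% and fast in 21.8%. No fast spot was among the keratin-rich spots of either section. The sections shared 357 spot barcodes, 4 of them between fast spots, but a barcode marks a position on the array and not a cell.

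**Figure D1:**
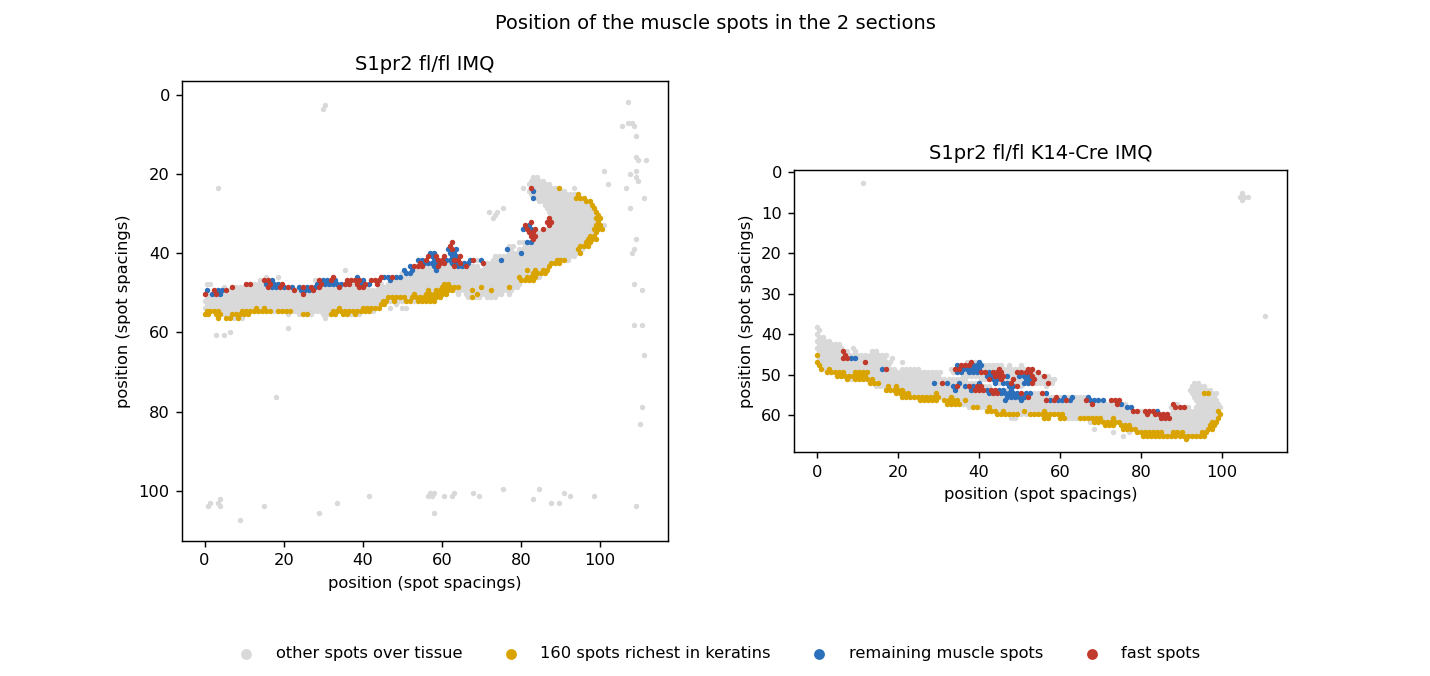
Position of every spot over tissue in the 2 sections, in spot spacings on both axes, with fast spots in red, remaining muscle spots in blue and the 160 spots richest in keratins in yellow. The muscle spots run along the side of the tissue opposite the keratin-rich edge, with median distances of 6.74 and 5.1 spacings from it for the fast spots.

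The marker genes of the label were high in the fast spots of both sections. *Myh4*, the myosin heavy chain of the fastest fibres and a gene of the choice, was present in 80 of 80 fast spots in each section. Its level per fast spot ran from 2347 to 38537 CPM (UMIs per 1000000 UMIs of the same spots) in the fl/fl section, with a median of 9959, and from 10158 to 69151 in the K14-Cre section, with a median of 38618. The K14-Cre remaining muscle spots, with a median of 28320 CPM, also lay above the fl/fl fast spots. *Pvalb*, a calcium buffer of fast fibres that was also used in the choice, had medians of 3853 CPM (0 to 15873) and 9233 CPM (1248 to 22942) in the fast spots. *Actn3*, the Z-disc actinin of fast fibres, was not used in the choice. It had UMIs in 67 of 80 fast spots in the fl/fl section and 79 of 80 in the K14-Cre section, with medians of 1088 CPM (0 to 6378) and 2705 CPM (0 to 10192). Summed over the fast spots, *Actn3* reached 1223 CPM (interval, 1106 to 1349) and 2652 CPM (2462 to 2854), against 121 (111 to 131) and 672 CPM (639 to 706) outside. That is 10.1-fold (8.88 to 11.5) in the fl/fl section and 3.95-fold (3.61 to 4.32) in the K14-Cre section.

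Of the 12 measured genes of the slow and oxidative sarcomere list, 7 had at most 12 UMIs in the fast spots of either section. Among these, *Myh7*, the slow myosin heavy chain, had 1 UMI over all fast spots of the fl/fl section and 2 in the K14-Cre section. Its partners in slow fibres were as sparse. The slow light chain genes *Myl2* and *Myl3* had 2 and 0 UMIs in the fl/fl section and 2 and 1 in the K14-Cre section, and slow troponin C (*Tnnc1*) had 2 and 8. The remaining muscle spots also held little *Myh7*, with 1 and 11 UMIs, although the whole list summed to 7850 and 7057 CPM there. The other 5 members, *Actn2*, *Csrp3*, *Mybpc1*, *Myoz2* and *Ankrd2*, had 142 to 682 UMIs in the fl/fl and 43 to 469 in the K14-Cre fast spots, and with them the list summed to 5934 CPM in the fl/fl fast spots and 4294 CPM in the K14-Cre fast spots.

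**Figure D2:**
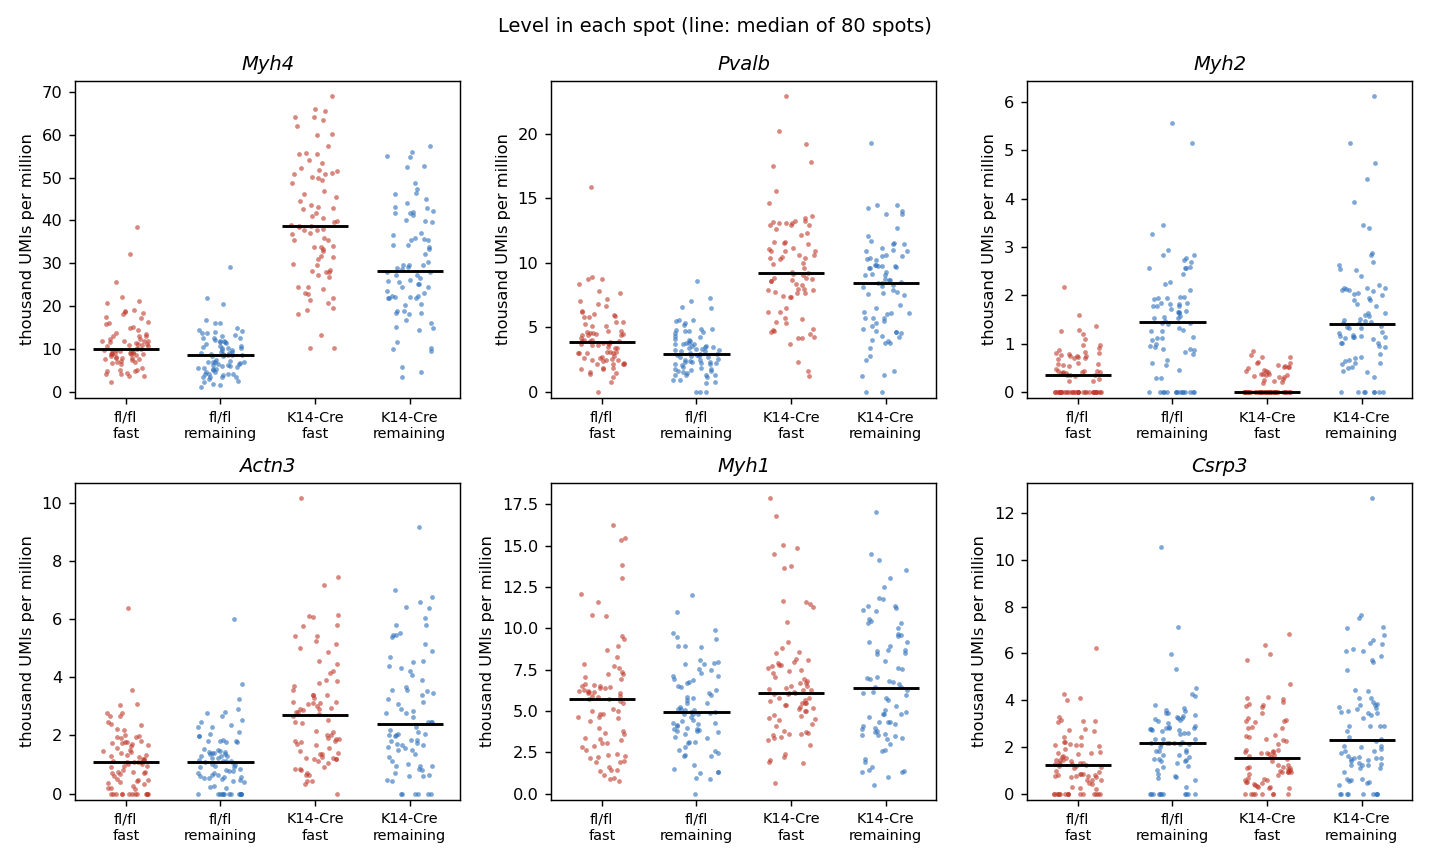
Level of 6 genes in each muscle spot, in UMIs per 1000 UMIs of the spot, for the fast (red) and remaining (blue) muscle spots of the fl/fl and K14-Cre sections, with a line at the median of 80 spots. *Myh4*, *Pvalb* and *Myh2* were used to choose the spots, and for *Actn3*, *Myh1* and *Csrp3* the points of the fast and the remaining spots overlap widely in each section.

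Against all spots outside the 160, genes of contraction, calcium handling and energy supply were higher in the fast spots. These ratios describe how the spots were chosen and are no test of it. A gene was counted where at least 10 UMIs would be expected in the smaller region at equal levels, and the 8 genes of the choice were left out. In the fl/fl section, 170 of 6430 genes (2.64%) were at least 4-fold higher in the fast spots, and in the K14-Cre section 54 of 5540 (0.975%). At least 4-fold lower were 278 (4.32%) and 703 (12.7%). TMM factors, which scale to the bulk of genes, added 0.14 and 0.49 to all log2 ratios and gave 180 higher and 201 lower genes, then 189 and 424. The median log2 ratio of all these genes was -0.38 and -0.50. Against only the outside spots with the lower muscle share, a setting chosen after seeing the data, 180 genes were at least 4-fold higher in the fl/fl section and 272 in the K14-Cre section. Why the counts differ between settings was not tested.

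Of the 13 listed genes of the fast sarcomere, 12 passed the minimum in the fl/fl section and all 12 were at least 4-fold higher, with a median log2 ratio of 3.35 and a range of 2.998 to 3.70. In the K14-Cre section 13 passed and 5 were at least 4-fold higher, with a median of 1.93. The slow and oxidative sarcomere list was also high in the fl/fl section, with 5 of 5 genes past the minimum at least 4-fold higher and a median of 3.48. Of 7 genes in the K14-Cre section, 5 were above 0 and 1 at least 4-fold higher, with a median of 1.33. Against the spots outside, the fast spots were thus enriched in muscle genes of both lists. *Mylpf*, the fast regulatory light chain, had log2 ratios of 3.63 and 2.02, and *Myh1* 3.15 and 1.83. *Myl1*, a fast essential light chain, had 3.65 and 1.84, and *Tpm1*, a tropomyosin, 2.998 and 1.72. Genes that all striated fibres share were also high. Titin (*Ttn*), the molecular spring of the sarcomere, had 3.40 and 2.23, desmin (*Des*), the intermediate filament of muscle, 3.34 and 1.90, and nebulin (*Neb*), the ruler of the thin filament, 3.03 and 2.41. Of this shared group, 15 of 16 measured genes in the fl/fl section and 8 of 19 in the K14-Cre section passed 4-fold.

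The genes that release and retrieve calcium were also high. *Atp2a1*, the calcium pump of the fast sarcoplasmic reticulum, had 11550 CPM (11184 to 11925) in the fl/fl fast spots and 1155 CPM (1124 to 1186) outside, a log2 ratio of 3.32, and had 2.24 in the K14-Cre section. *Ryr1*, the calcium release channel, had 3.28 and 2.09, *Casq1*, the calcium store protein of fast fibres, 3.24 and 2.11, and *Trdn*, which links the store to the channel, 3.57 and 2.20. In total 10 of 11 measured members in the fl/fl section and 5 of 14 in the K14-Cre section passed 4-fold. *Atp2a2*, the pump of slow fibres and of many other cells, had -1.01 and -1.87. It was the only member of the slow calcium list past the minimum in the fl/fl section. *Casq2*, the calcium store protein of slow fibres, had 0.44 and *Sln*, an inhibitor of the pump, 1.49 in the K14-Cre section, so that 2 of 3 members were above 0.

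All 18 members of the glycogen and glycolysis list past the minimum were above 0 in the fl/fl section, 11 of them at least 4-fold, and all 19 in the K14-Cre section, 6 of them at least 4-fold. Glycogen phosphorylase (*Pygm*) had log2 ratios of 3.40 and 2.11, muscle phosphofructokinase (*Pfkm*) 3.10 and 2.11, muscle phosphoglycerate mutase (*Pgam2*) 3.45 and 2.18, and beta enolase (*Eno3*) 3.45 and 2.13. *Aldoa*, aldolase A, had 2.55 and 2.07. *Pgk1*, *Pkm* and *Gpi1*, which act in the same pathway in most tissues, had 0.09, 0.22 and 0.42 in the fl/fl section and 0.41, 0.68 and 0.68 in the K14-Cre section.

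The oxidative list had a median of 0.84 over 25 genes and 0.83 over 26, with 5 and 2 genes at least 4-fold higher. *Cox6a2* and *Cox7a1*, the striated muscle subunits of cytochrome c oxidase, had 3.56 and 3.78 in the fl/fl section and 2.37 for both in the K14-Cre section. *Atp5a1* and *Atp5b*, subunits of the ATP synthase of all cells, had 0.42 and 0.54, then 0.44 and 0.91. *Slc25a4*, the ADP and ATP carrier of muscle mitochondria, had 2.95 and 1.89. *Mef2c*, a muscle transcription factor, had 2.94 and 1.73, the highest of the list of fibre type transcription genes. In that list 3 of 7 genes past the minimum were above 0 in the fl/fl section and 8 of 10 in the K14-Cre section. The medians were -0.05 and 0.66.

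Ordered by the ratio in the section where it was closer to 1, the 10 leading genes were *Neb*, *Rtn2*, *Rragd*, *Cox6a2*, *Cox7a1*, *Adssl1*, *Eef1a2*, *Atp2a1*, *Ttn* and *Mlf1*. *Rtn2*, a reticulon of the sarcoplasmic reticulum, had log2 ratios of 3.38 and 2.41. *Adssl1*, the muscle enzyme of the purine nucleotide cycle, had 3.32 and 2.36, and *Eef1a2*, the translation factor of muscle and neurons, 3.57 and 2.27. At the other end were *Tent5b*, *Tnfrsf18*, *Grhl3*, *Sprr2i* and *Gmppb*, all with few UMIs in the fast spots. *Grhl3*, a transcription factor of the epidermal barrier, had 6 UMIs in the fl/fl fast spots and 1 in the K14-Cre fast spots against 887 and 317 outside, with log2 ratios of -3.37 and -5.19. *Sprr2i*, of the cornified envelope, had 26 and 10 UMIs against 3494 and 1276.

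**Figure D3:**
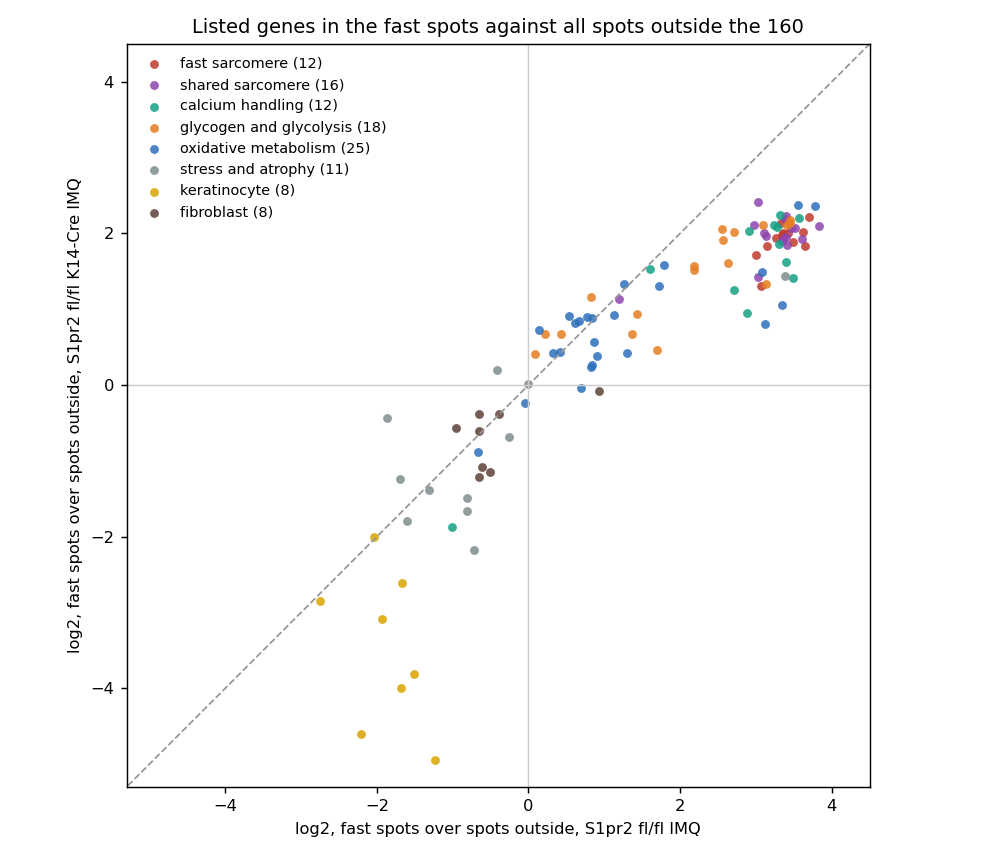
Log2 ratio of the fast spots over all spots outside the 160 in the fl/fl section (x axis) and the K14-Cre section (y axis) for listed genes past the minimum in both, coloured by list with the number of genes in brackets and the diagonal dashed. The fast sarcomere genes lie below the diagonal, from 2.998 to 3.70 on the x axis and from 1.31 to 2.22 on the y axis, and the keratinocyte genes lie below 0 in both sections.

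RNA of other cell types was present in the fast spots at levels that differed between the sections. The 10 listed keratinocyte genes summed to 10299 CPM in the fast spots of the fl/fl section and 1104 CPM in those of the K14-Cre section, against 39209 and 13691 CPM outside, with *Krt14* the most abundant at 5376 CPM (5128 to 5634) and 541 CPM (457 to 636). *Krt14* had UMIs in 76 of 80 fast spots in the fl/fl section and 55 of 80 in the K14-Cre section, although the fast spots lay at least 4.36 and 2.65 spacings from the keratin-rich spots. Of these genes, 4 of 10 past the minimum in the fl/fl section and 8 of 8 in the K14-Cre section were at least 4-fold lower in the fast spots than outside. The part of this RNA in the results was not tested. The fibroblast list summed to 9524 and 9743 CPM, led by *Col3a1* with 1223 and 1016 UMIs, and the macrophage list to 1536 and 1778 CPM. The blood list, nearly all haemoglobin, had 1431 CPM in the fl/fl fast spots and 137 CPM in the K14-Cre fast spots. The neutrophil and T cell list had 3583 and 696 CPM in the fast spots, against 14112 and 3029 CPM outside. Its UMIs were nearly all of *S100a9* (792 and 89) and *S100a8* (365 and 97), which inflamed keratinocytes also make, while *Ly6g*, a defining gene of neutrophils, had 0 and 1 and *Cd3e*, of T cells, 1 and 1. The 6 satellite cell genes had 9 and 7 UMIs in all, among them *Pax7*, the defining gene of muscle stem cells, with 3 and 1. The 1226 olfactory, vomeronasal, taste and trace amine receptor genes, which skin and muscle should hardly use, summed to 1910 and 2056 CPM in the fast spots and to 2808 and 8415 CPM outside. *S1pr2* had 9 UMIs in the fast spots of the fl/fl section and 6 in those of the K14-Cre section, or 28 CPM (13 to 52) and 22 CPM (8 to 48). Muscle is not where this Cre acts, and where its probe lies relative to the deleted part is not given in the sources used here, so these levels do not check the genotype.

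How far the fast spots differed from the remaining muscle spots was asked next. The genes that chose them differed by design. *Myh2*, the heavy chain of fast oxidative fibres, had 601 CPM (520 to 691) in the fast and 1723 CPM (1573 to 1884) in the remaining muscle spots of the fl/fl section, and 233 CPM (179 to 299) and 1756 CPM (1584 to 1942) in the K14-Cre section, log2 ratios of -1.52 and -2.91. Of the fast spots, 35 of 80 in the fl/fl section and 50 of 80 in the K14-Cre section had no *Myh2* UMI, against 15 and 8 of the remaining muscle spots. *Tnnt1*, slow troponin T, had 22 and 17 UMIs in the fast and 47 and 67 in the remaining muscle spots. *Myh4* was 1.2-fold (1.15 to 1.26) and 1.25-fold (1.22 to 1.29) higher in the fast spots.

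The same UMIs chose the spots and gave these ratios. When the UMIs of every spot were split at random, the spots were chosen on 50% of them and the genes were measured on the other 50%, the log2 ratio of *Myh2* was -0.26 (-0.59 to 0.07) in the fl/fl section and -1.81 (-2.25 to -1.39) in the K14-Cre section. With the parts swapped it was -0.36 (-0.67 to -0.05) and -1.47 (-1.88 to -1.07). *Tnnt1* gave -0.34 (-1.34 to 0.70) and -1.87 (-3.08 to -0.78), and *Myh4* 0.48 (0.37 to 0.58) and 0.44 (0.38 to 0.50). In UMIs that took no part in the choice, *Myh2* remained well below 0 in the K14-Cre section and was closer to 0 in the fl/fl section, whereas *Myh4* was further above 0 than in the full data in both sections. The split also lowered the depth behind the choice, and 61 and 64 of the 80 fast spots were chosen again, so the parts of shared UMIs, depth and changed spots cannot be told apart.

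*Myh2* and *Myh4* lie in the same direction on chromosome 11, and both entered the ratio that divided the muscle spots. Their promoters are shown for comparison with that of *Myoz2*, a calsarcin of slow and oxidative fibres that followed *Myh2* in the K14-Cre section. Each sequence holds the 250 bases before the start of the gene in RefSeq (GRCm38.p6), 5′ to 3′, with matches to the E box CANNTG and to the MEF2 pattern CTANNNNTAG in capitals. Each pattern reads the same on the other strand, and no match to one overlaps a match to the other.
Myh4, chr11:67237562-67237811, plus strand: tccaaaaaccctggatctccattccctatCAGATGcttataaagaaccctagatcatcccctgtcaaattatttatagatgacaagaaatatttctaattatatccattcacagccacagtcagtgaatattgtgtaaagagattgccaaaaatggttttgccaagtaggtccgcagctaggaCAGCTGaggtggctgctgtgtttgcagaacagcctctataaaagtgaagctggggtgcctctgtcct
Myh2, chr11:67170777-67171026, plus strand: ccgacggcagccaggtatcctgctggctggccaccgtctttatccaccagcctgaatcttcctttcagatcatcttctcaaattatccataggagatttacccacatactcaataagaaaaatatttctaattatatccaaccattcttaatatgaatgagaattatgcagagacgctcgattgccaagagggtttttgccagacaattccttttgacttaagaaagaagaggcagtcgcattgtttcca
Myoz2, chr3:123034988-123035237, minus strand: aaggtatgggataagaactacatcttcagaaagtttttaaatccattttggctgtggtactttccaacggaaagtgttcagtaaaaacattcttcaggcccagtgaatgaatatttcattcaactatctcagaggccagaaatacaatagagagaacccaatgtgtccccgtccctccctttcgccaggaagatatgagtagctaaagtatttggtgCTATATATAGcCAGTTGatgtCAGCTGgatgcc
*Myh4* held 2 E boxes, *Myh2* none, and *Myoz2* 2 E boxes and 1 MEF2 pattern. Among promoters read but not printed, that of *Myh1* held neither pattern. Those of *Csrp3* held 4 E boxes each and no MEF2 pattern. Of 32851 RefSeq promoters, 66.2% held the E box and 3.20% the MEF2 pattern in this window. A match describes the letters only.

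Genes that took no part in the choice were then compared. No gene past the minimum on the fast sarcomere, calcium, or glycogen and glycolysis lists passed 2-fold between fast and remaining muscle spots. In the fl/fl section, 225 of 5181 genes (4.34%) were at least 2-fold higher and 210 (4.05%) at least 2-fold lower in the fast spots, and in the K14-Cre section 288 (8.33%) and 213 (6.16%) of 3458. These were mainly genes with few UMIs. With at least 100 UMIs expected in the smaller region, a minimum chosen after seeing the data, no gene passed 2-fold in either direction in the fl/fl section, and in the K14-Cre section 1 of 190 did, the macrophage gene *C1qa* with 221 against 86 UMIs, a log2 ratio of 1.04 that turned to -0.14 with spots thinned to 500 UMIs. Summed, the macrophage list had 1536 CPM in the fast and 1531 CPM in the remaining muscle spots of the fl/fl section and 1778 and 1279 CPM in the K14-Cre section, and the keratinocyte list 10299 and 9124 CPM, then 1104 and 1390 CPM. Their part in the ratios below was not tested.

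*Actn3* had 399 and 296 UMIs in the fast and the remaining muscle spots of the fl/fl section, a log2 ratio of 0.21 (-0.01 to 0.43), and 716 and 559 UMIs in the K14-Cre section, a ratio of 0.03 (-0.13 to 0.20). Both intervals included 0, and with spots thinned to 500 UMIs the ratios were -0.42 and 0.29. None of the 13 fast sarcomere genes passed 2-fold in either section, and their medians were 0.03 and -0.01 beside 0.02 and 0.01 for all genes. They ranged from -0.13 to 0.37 in the fl/fl section and from -0.67 to 0.35 in the K14-Cre section. *Myh1* had 0.12 (0.02 to 0.23) and -0.10 (-0.20 to -0.00), opposite in the sections. On UMIs held out from the choice *Myh1* had -0.01 (-0.16 to 0.14) and -0.15 (-0.29 to -0.01). With the parts swapped it had -0.11 (-0.25 to 0.04) and 0.06 (-0.08 to 0.20), so its direction was not kept in either section. *Mylpf* had -0.13 (-0.20 to -0.07) and -0.14 (-0.20 to -0.08), slightly lower in the fast spots of both. Held-out UMIs gave *Mylpf* -0.20 (-0.29 to -0.10) in the fl/fl section and -0.06 (-0.14 to 0.03) in the K14-Cre section. With the parts swapped they gave -0.21 (-0.31 to -0.12) and 0.004 (-0.08 to 0.09), so both K14-Cre intervals included 0. The glycogen and glycolysis list had medians of 0.07 and -0.02, with none of 22 members past 2-fold. Its ranges were -0.37 to 0.95 and -0.81 to 0.83. The calcium list of 15 genes had medians of 0.05 and -0.06, with ranges of -0.54 to 0.42 and -0.52 to 0.22. *Pygm* had 0.04 (-0.12 to 0.21) and 0.02 (-0.14 to 0.18), and *Eno3* 0.07 (-0.04 to 0.17) and 0.05 (-0.04 to 0.14).

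Of the 12 measured genes of the slow and oxidative sarcomere list, 5 passed the minimum in the fl/fl section and 6 in the K14-Cre section. All of these were below 0, with medians of -0.34 and -0.72. Over all genes, 2467 of 5181 and 1717 of 3458 were below 0. None of the list passed 2-fold in the fl/fl section and 2 did in the K14-Cre section. Of the sarcomere genes that all striated fibres share, 16 of 19 and 14 of 19 were also below 0, with medians of -0.16 and -0.26. *Csrp3*, a muscle LIM protein of the Z-disc, had 1668 CPM (1530 to 1814) in the fast and 2644 CPM (2457 to 2841) in the remaining muscle spots of the fl/fl section, and 1737 CPM (1584 to 1902) and 2826 CPM (2607 to 3060) in the K14-Cre section. Its log2 ratios were -0.67 (-0.83 to -0.50) and -0.70 (-0.88 to -0.53). The medians per spot were 1216 and 2178 CPM, then 1525 and 2290 CPM, and the spots of both kinds overlapped widely. *Ankrd2*, a stretch-responsive ankyrin repeat protein of slow fibres, had -0.52 (-0.85 to -0.19) and -1.12 (-1.56 to -0.70). *Actn2*, the actinin of all fibres, had -0.21 (-0.37 to -0.06) and -0.54 (-0.74 to -0.33). *Mybpc1*, slow myosin binding protein C, had -0.34 (-0.56 to -0.11) and -0.48 (-0.77 to -0.18).

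*Myoz2* had -0.19 (-0.45 to 0.07) in the fl/fl section, an interval that includes 0, and -1.79 (-2.33 to -1.28) in the K14-Cre section, where it had 43 UMIs in the fast and 119 in the remaining muscle spots. Myoglobin (*Mb*), the oxygen store of oxidative fibres, had -0.12 (-0.38 to 0.13) in the fl/fl section and -0.90 (-1.23 to -0.58) in the K14-Cre section. *Fabp3*, which carries fatty acids in oxidative fibres, had -0.01 (-0.40 to 0.40) and -0.79 (-1.47 to -0.12), and *Ckmt2*, the mitochondrial creatine kinase of muscle, -0.41 (-0.65 to -0.17) and -0.70 (-0.97 to -0.43). *Ckmt2* is on a separate list of energy buffering genes, with members on both sides of 0 in both sections. That list ranged from -0.70 to 0.11 in the fl/fl section and from -0.70 to 0.62 in the K14-Cre section, where *Ckmt2* was its lowest member. The oxidative list as a whole had medians of -0.09 over 28 genes and -0.05 over 25, with 1 gene at least 2-fold lower in each section. *Cox6a2* had 0.07 (-0.06 to 0.20) and -0.01 (-0.18 to 0.16). On UMIs held out from the choice, *Csrp3* had -0.18 (-0.42 to 0.05) and -0.53 (-0.77 to -0.29), *Mb* -0.07 (-0.45 to 0.31) and -1.24 (-1.70 to -0.78), and *Myoz2* -0.63 (-1.02 to -0.25) and -1.98 (-2.77 to -1.24). With the parts swapped they had -0.29 (-0.52 to -0.05) and -1.12 (-1.38 to -0.85), -0.09 (-0.47 to 0.30) and -0.91 (-1.39 to -0.43), and -0.09 (-0.46 to 0.27) and -1.40 (-2.09 to -0.74). Of the 8 genes described in these paragraphs from *Csrp3* to *Ckmt2*, both intervals lay below 0 for 6 in the K14-Cre section and for none in the fl/fl section. The exceptions in the K14-Cre section were *Mybpc1*, with -0.60 (-0.9997 to -0.20) and -0.30 (-0.74 to 0.13), and *Fabp3*, with -0.66 (-1.66 to 0.32) and 0.40 (-0.62 to 1.48), which turned its direction. *Ckmt2* had 0.0060 (-0.35 to 0.37) and -0.57 (-0.92 to -0.21) in the fl/fl section.

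**Figure D4:**
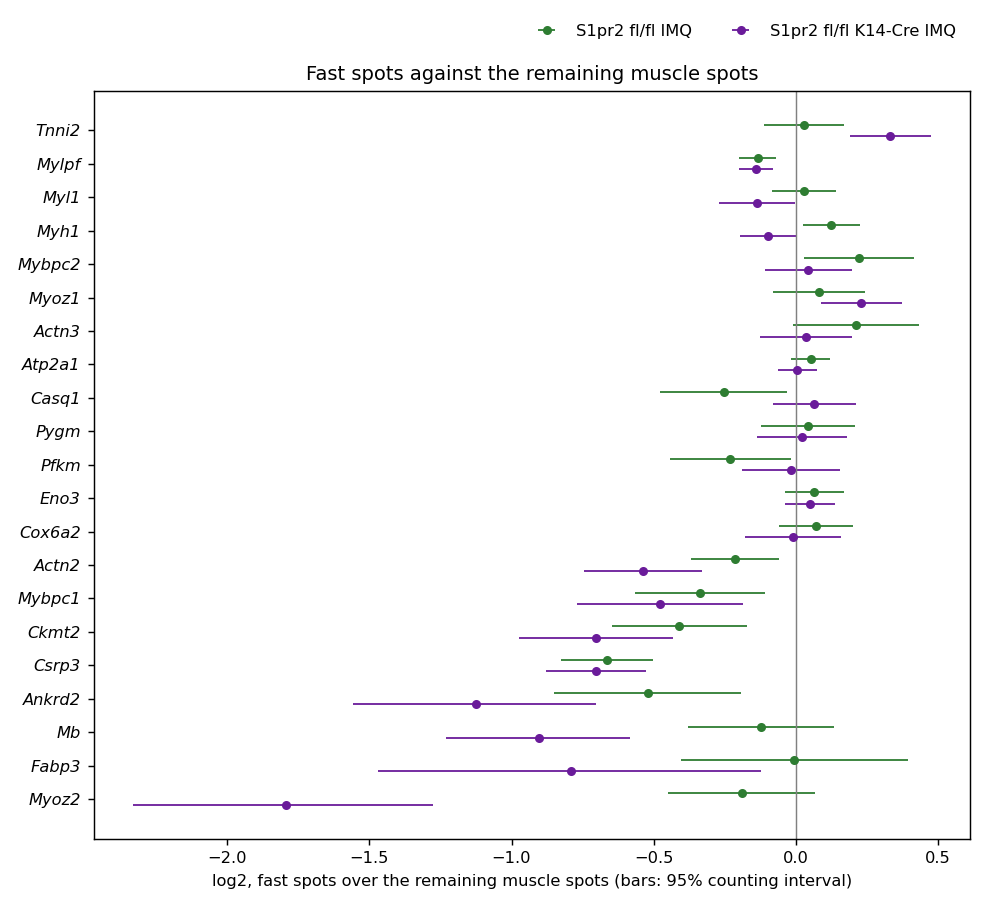
Log2 ratio of the fast over the remaining muscle spots for listed genes, none of them used in the choice, in the fl/fl section (green) and the K14-Cre section (purple), with 95% counting intervals. The points from *Tnni2* to *Cox6a2* lie between -0.25 and 0.33, and those from *Actn2* down lie below 0 in both sections, down to -1.79 for *Myoz2*.

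By the ratio in the section where it was closer to 1, the genes highest in the fast over the remaining muscle spots included *Smarcc1*, *Imp4*, *Stag1*, *Smarcal1*, *Tns2*, *Tmem186*, *Tab2*, *Mmp14* and *Ifitm2*. The 10 lowest were *Psme3*, *P2ry2*, *Sema3c*, *Eri3*, *Lsmem1*, *Nfatc2*, *Csgalnact2*, *Slc20a2*, *Crybg3* and *Mical3*. All had few UMIs. *Smarcc1*, a subunit of the SWI/SNF chromatin complex, had 29 and 7 UMIs in the fast and remaining muscle spots of the fl/fl section and 21 and 4 in the K14-Cre section. *Mmp14*, a membrane protease of stromal cells, had 78 and 33, then 27 and 10. With spots thinned to 500 UMIs its log2 ratio turned to -0.29 in the fl/fl section. That of *Sema3c* turned to 0.056 in the K14-Cre section with the top 240 spots. *Lsmem1* had 9 and 17, then 15 and 27. Of the 3224 genes measured in both sections, 9 were at least 2-fold higher in both and 6 at least 2-fold lower in both. None of the genes named here is on the sarcomere, calcium, or glycogen and glycolysis lists.

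The fast spots of the 2 sections were then set against each other. Here *Myh4* reached 41698 CPM (40931 to 42475) in the K14-Cre section and 13116 CPM (12726 to 13515) in the fl/fl section, 3.18-fold (3.07 to 3.29). *Pvalb* was 2.22-fold (2.08 to 2.37) higher in the K14-Cre section and *Actn3* 2.17-fold (1.92 to 2.46). *Myh2* was lower there, with 63 against 196 UMIs and a log2 ratio of -1.36. *Myh4*, *Pvalb* and *Myh2* entered the ratio, whose limit was 0.0233 in the K14-Cre section and 0.1 in the fl/fl section. The choice itself therefore shapes their differences between the sections. In the remaining muscle spots the median of *Myh2* per spot was 1402 CPM in the K14-Cre section and 1445 CPM in the fl/fl section. Since the 4 muscle genes took a larger share of the UMIs in the K14-Cre fast spots, the ratios were also read against other muscle genes. The 43 genes at least 4-fold above the spots outside in both sections had a median log2 ratio of 0.37, K14-Cre over fl/fl, whereas the median of all 4619 genes was -0.19. Of the 43, 33 were above 0, 5 were at least 2-fold higher in the K14-Cre section and 0 at least 2-fold lower. The fast-spot UMIs that chose the 43 also form this ratio. Fewer genes passed 4-fold in the K14-Cre section than in the fl/fl section (54 against 170), so the ratios of the 43 describe that choice as well. The shared sarcomere list, which was not cut at 4-fold, had a median of 0.24, with 15 of 19 genes above 0. Its summed UMIs had a log2 ratio of 0.04. Over all genes, 288 (6.24%) were at least 2-fold higher and 791 (17.1%) at least 2-fold lower in the K14-Cre section. TMM factors added 0.19 to all ratios and gave 420 and 581, and scaling to the 43 muscle genes gave 123 and 1368.

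*Casq1* led these 43 genes, with 877 UMIs in the K14-Cre fast spots against 326, or 3249 CPM (3037 to 3471) against 999 CPM (894 to 1114). Its log2 ratio of 1.70 (1.52 to 1.89) lay 1.33 above the median of the group. *Rtn2* followed with 1.18 (0.85 to 1.51), then *Pfkm* with 1.04 (0.85 to 1.23), *Pdlim3*, an adaptor of the Z-disc, with 1.04 (0.78 to 1.29) and *Tmod1*, a cap of thin filaments, with 1.01 (0.58 to 1.44). The lowest were *Ldb3*, a Z-disc protein, with -0.71 (-0.89 to -0.53), *Txlnb* with -0.62 (-1.15 to -0.10), *Cox6a2* with -0.46 (-0.60 to -0.31), *Mybpc1* with -0.45 (-0.72 to -0.19) and *Rragd* with -0.45 (-1.01 to 0.10). The range of the 43 genes was thus -0.71 to 1.70. Of the fast sarcomere list, 11 of 13 were above 0 and 3 at least 2-fold higher, with a median of 0.58, and of the slow and oxidative sarcomere list 4 of 5 were below 0, with a median of -0.64 and *Myoz2* at -2.28.

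**Figure D5:**
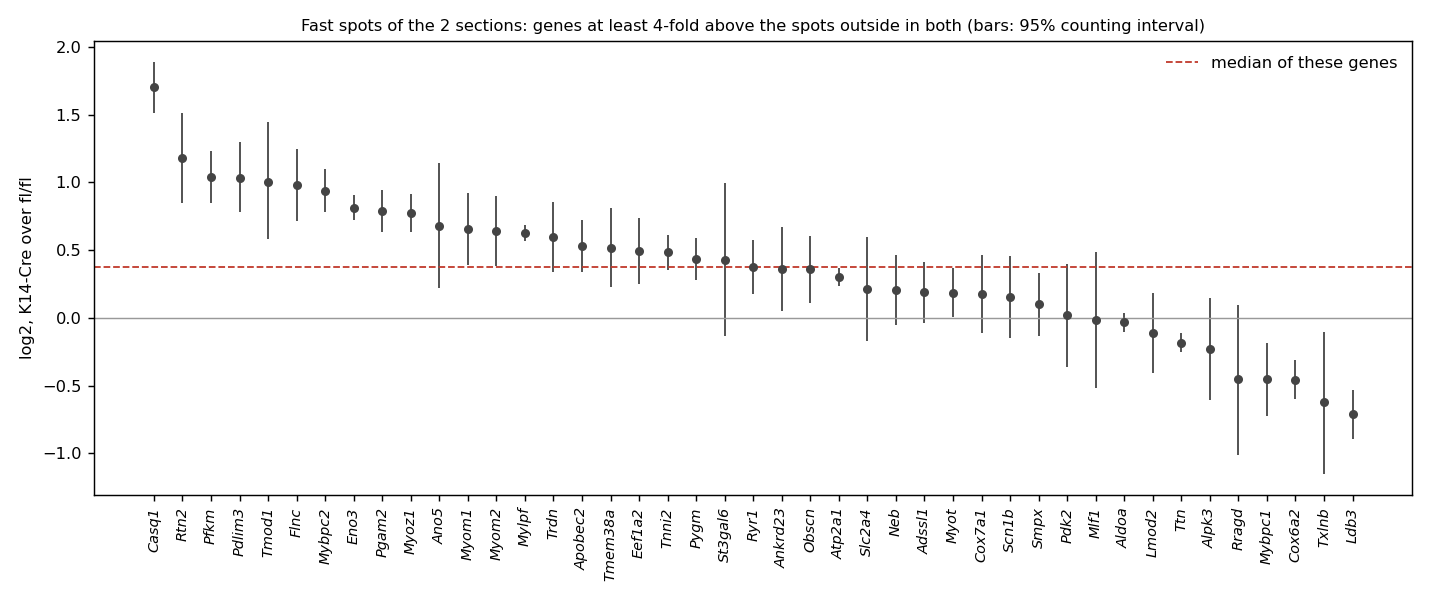
Log2 ratio of the fast spots of the K14-Cre section over those of the fl/fl section for the 43 genes at least 4-fold above the spots outside in both sections, with 95% counting intervals and the median of these genes (0.37) dashed. *Casq1* stands apart at 1.70 above *Rtn2* at 1.18, and *Ldb3* is lowest at -0.71.

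Single genes of stress, metabolism and development were further apart. The stress and atrophy list went in both directions. Of 12 genes of the stress and atrophy list past the minimum, 3 were above 0 and 9 below, with a median of -0.32. At least 2-fold higher in the K14-Cre section was 1 of them, and 3 were at least 2-fold lower. All 3 developmental genes past the minimum were above 0, and 2 were at least 2-fold higher. *Ankrd1*, a stress-induced ankyrin repeat protein of muscle, had 74 UMIs in the K14-Cre fast spots and 5 in the fl/fl fast spots, 17.9-fold (7.33 to 56.7). These came from 24 of 80 and 4 of 80 spots. The remaining muscle spots differed likewise, with 81 and 8 UMIs. *Pdk4*, the kinase that turns pyruvate away from oxidation in fasting muscle, had 8 UMIs in the K14-Cre fast spots and 64 in the fl/fl fast spots, 6.62-fold lower. *Igf1*, a growth factor, had 11 and 67, with a log2 ratio of -2.33. *Mybph*, a myosin binding protein of fast muscle, had 164 and 57 UMIs, a ratio of 1.80. Among developmental genes, *Myh8*, the perinatal myosin heavy chain, had 45 UMIs in the K14-Cre fast spots and 1 in the fl/fl fast spots, but only 6 of 80 spots held them and 1 spot held 28. *Myl4*, the embryonic light chain, had 19 and 4 UMIs, and *Tnnt2*, the embryonic and cardiac troponin T, which was under the minimum of 10 expected UMIs, 15 and 1. Outside the 160 spots of the K14-Cre section *Myh8* had 435 UMIs and *Myl4* 424, so these genes were present in other spots as well. Beside these ratios, the keratinocyte sum of the fast spots had a log2 ratio of -3.22, the blood sum -3.38, the neutrophil and T cell sum -2.36 and the fibroblast sum 0.03. Their part in the differences between the sections was not tested.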

How the data were processed

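Spatial RNA was measured in 2 skin sections, 1 per genotype. As deposited, the values are raw UMI counts for every gene in each spot, with array positions. The file header names Space Ranger 3.0.0, and the submitters' processing notes name mm10. Per the labels, libraries were made with Visium CytAssist for FFPE tissue, and the paper names Partek Flow for processing. The sections held 5315351 (fl/fl) and 2845826 UMIs (K14-Cre), over 19465 genes.

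Spots were chosen as given at the head of the results. UMIs were summed per region and divided by all UMIs of the region (CPM). Intervals are exact Poisson for levels and conditional binomial (Clopper-Pearson) for ratios. They cover counting error only, and no test across samples was possible. A gene with 0 UMIs in a region was set to 3 counts for a ratio. Genes were counted with at least 10 UMIs expected in the smaller region, without the 8 genes of the choice. The members, the 29 gene lists and the rule for named genes were chosen with earlier results of these data known. By that rule the text may name up to 4 genes of each list with the most UMIs, list members with opposite directions, the genes of the choice, and the genes at both ends of each comparison. Chosen after their values were seen were *Myh7*, *Myl2*, *Myl3*, *Tnnc1*, *Pgk1*, *Ankrd2*, *Mb*, *Fabp3*, *Ankrd1*, *Pdk4*, *Mybph*, *Tnnt2*, *Ly6g* and which promoters to show. Of 318 listed genes, 304 were in the files, and the others were not analysed here. Some genes that the rule names are not reported here. *Aldoa* is ENSMUSG00000030695, since 2 features share the symbol. Python 3.11.15 with numpy 2.4.6, scipy 1.17.1 and pandas 2.3.3 was used, with edgeR 4.0.16 in R 4.3.3 for TMM factors. The code was tested on simulated data.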

Additional observations from a re-analysis of the deposited data

How the results depend on the processing

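With 1 section per genotype, the values have no replicate error, and the counts of genes past a fold depend on depth and on the minimum UMIs. No paired analysis was possible because each group holds a single section. Chosen after seeing the data were the low-muscle outside spots, the scaling to muscle genes, the minimum of 100 UMIs and the swapped UMI parts. The cause of a change was not tested, except where fewer genes or UMIs were measured.

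Genes at least 4-fold above the spots outside numbered 170 in the fl/fl section and 54 in the K14-Cre section. These were 2.64% and 0.975% of the genes measured. Thinned to 500 UMIs per spot they were 31 and 29 (5.54% and 5.6%). With no minimum beyond 1 UMI they were 2226 and 744 (11.6% and 3.87%), and with at least 100 UMIs expected 21 and 19 (4.95% and 6.71%). In the K14-Cre section they were 18 with the top 120 spots, 149 with the top 240, 189 with TMM factors, 84 with the mean receptor UMIs taken off and 272 against the low-muscle outside spots.

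Genes 2-fold higher and lower than in the remaining muscle spots were 225 and 210 (fl/fl) and 288 and 213 (K14-Cre). On held-out UMIs they were 71 and 33 of 1830, then 98 and 73 of 1565. Thinned they were 31 and 22 of 566, then 23 and 25 of 482. With no minimum they were 2529 and 2845 of 16456, then 2762 and 3104 of 14978. With at least 100 UMIs expected they were 0 and 0 of 309, then 1 and 0 of 190. In the fl/fl section, the mean over spots gave 614 and 493, and the ratio of *Myh2* and *Myh4* alone gave 120 lower genes. In the K14-Cre section, the top 240 spots gave 344 lower genes.

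Genes 2-fold higher and lower in the K14-Cre fast spots were 288 and 791. They were 124 and 401 of 2450 on held-out UMIs, 54 and 77 of 524 thinned, and 3136 and 3585 of 16169 with no minimum. With at least 100 UMIs expected they were 10 and 28 of 291. Scaled to the 43 muscle genes they were 123 and 1368 of 4619. The *Actn3* log2 ratio over the remaining muscle spots was 0.21 and 0.03. It was -0.42 and 0.29 with spots thinned to 500 UMIs, and lay within its counting interval under the other settings, though below 0 in the K14-Cre section on held-out UMIs (-0.12) and with TMM factors (-0.0045). Among named genes, 4 ratios past the fold changed sign. *Mmp14* (fl/fl, -0.29) and *C1qa* (K14-Cre, -0.14) did when thinned, *Sgca* (fl/fl, 0.44) on held-out UMIs, and *Sema3c* (K14-Cre, 0.056) with the top 240 spots. Of the fast spots, 57 and 49 of 80 were chosen again after thinning, 61 and 64 on 50% of the UMIs, and 80 and 80 from connected groups of at least 20 spots.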
